A study of Mus musculus with 12 samples.

Results

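The mRNAs of 9 genes that mark astrocytes were followed in purified mouse myelin across 4 ages. Gfap and Vim, which encode intermediate filament proteins, stand for reactive astrocytes, and Aqp4, Aldh1l1, Slc1a2, Slc1a3, Mlc1, Hepacam and Fgfr3 stand for resting astrocytes. They were chosen by gene symbol, and all 9 of 9 were listed among the 21937 genes of the deposited table of normalized read counts. RNA was sequenced from a light membrane fraction enriched for myelin, prepared on a sucrose gradient from whole brains of wild-type male c57Bl6/N mice without treatment. The mice were P18 (18 days after birth), P75, 6 months or 24 months old, and each age had 3 libraries. Those of 6 months came from 3 separate mice. For the other ages the number of mice per library is not given in the sources used here. Such a fraction can hold membranes of neighbouring cells beside myelin, so the cell from which an mRNA came is not known. In such a bulk sample fewer astrocytes, or less astrocyte material in the fraction, cannot be told apart from less RNA per cell.

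Astrocytes take up glutamate and potassium, exchange water at endfeet on blood vessels, and are joined to oligodendrocytes by gap junctions. After injury, inflammation or in old age they become reactive: they enlarge and produce more GFAP and vimentin. Their fine processes carry mRNAs of their own, including those for GFAP and the glutamate transporters, and reach myelinated axons at the nodes of Ranvier. Vimentin is also made by endothelial, mural and ependymal cells and by immature glia.

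Positions are on NCBIM37, the build of the deposited values (mm9). Gfap (ENSMUSG00000020932.8) spans chr11:102748650-102762226 on the minus strand, and Vim (ENSMUSG00000026728.3) spans chr2:13495554-13504453 on the plus strand. Slc1a2 (ENSMUSG00000005089.8, chr2:102498816-102630941, plus) and Slc1a3 (ENSMUSG00000005360.8, chr15:8584124-8660764, minus) encode the glutamate transporters GLT-1 and GLAST. Aqp4 (ENSMUSG00000024411.8, minus strand) encodes the water channel of the endfeet. Mlc1 (ENSMUSG00000035805.7, chr15:88786314-88809437, minus) and Hepacam (ENSMUSG00000046240.7, chr9:37174953-37194157, plus) encode membrane proteins that bind each other at astrocyte junctions. Aldh1l1 (ENSMUSG00000030088.9, chr6:90436421-90550197, plus) encodes a folate enzyme, and Fgfr3 (ENSMUSG00000054252.9, chr5:34064373-34079716, plus) a receptor for fibroblast growth factors. Gfap, Aldh1l1 and Slc1a2 each overlap an annotated gene on the other strand. Whether strand was used in counting is not given in the sources used here, so reads from those partners cannot be told apart from theirs.

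The bases before the start sites of the reactive pair and of the resting genes with the largest rises over life, Slc1a3 and Mlc1, are shown to compare their proximal promoters. Each run is the 250 bases before the RefSeq start on GRCm38.p6, read 5′ to 3′ on the strand of the gene, and capitals mark letters that match TTCNNNGAA (bound by STAT factors) or TATAAA on either strand. They lie at chr11:102897201-102897450 (minus), chr2:13574061-13574310 (plus), chr15:8710808-8711057 (minus) and chr15:88978554-88978803 (minus).
Gfap: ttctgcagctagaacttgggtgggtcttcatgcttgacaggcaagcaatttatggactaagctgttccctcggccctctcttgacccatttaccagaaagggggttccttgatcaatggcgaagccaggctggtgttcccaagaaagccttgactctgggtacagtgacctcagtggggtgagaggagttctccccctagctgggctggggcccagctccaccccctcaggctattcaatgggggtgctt
Vim: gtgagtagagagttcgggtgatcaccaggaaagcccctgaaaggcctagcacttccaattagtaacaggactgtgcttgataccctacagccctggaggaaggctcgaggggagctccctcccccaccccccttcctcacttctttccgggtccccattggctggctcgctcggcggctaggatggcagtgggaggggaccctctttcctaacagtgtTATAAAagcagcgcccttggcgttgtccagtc
Slc1a3: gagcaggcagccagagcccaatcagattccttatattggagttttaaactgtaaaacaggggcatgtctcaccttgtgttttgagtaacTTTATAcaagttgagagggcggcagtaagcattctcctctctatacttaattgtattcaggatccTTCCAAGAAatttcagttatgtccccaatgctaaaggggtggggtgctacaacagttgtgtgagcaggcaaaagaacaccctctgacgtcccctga
Mlc1: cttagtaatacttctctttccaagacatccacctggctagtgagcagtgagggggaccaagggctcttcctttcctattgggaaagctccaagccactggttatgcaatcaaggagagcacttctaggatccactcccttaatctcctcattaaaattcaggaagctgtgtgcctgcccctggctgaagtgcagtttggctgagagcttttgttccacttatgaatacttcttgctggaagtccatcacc
In Vim, TATAAA stood 32 to 27 bases before the start, and 12.4% of 32851 RefSeq promoters hold it or its reverse complement in a window of this length. In Slc1a3, TTCCAAGAA stood 96 to 88 bases before the start, and 7.02% of the promoters hold a match to this palindrome. TTTATA, the reverse complement of TATAAA, stood 161 to 156 bases before the Slc1a3 start. Neither string was found in this window of Gfap or Mlc1. TGANTCA (AP-1, in 6.75% of promoters) and the palindrome of NFI factors (in 0.703%) matched none of the members with a promoter in the table, which were 8 of 9. GGGCGG or its reverse complement (SP factors, in 32.7%) was found in Aldh1l1, Slc1a3 and Fgfr3. A match describes letters only and is not a bound site.

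Every library held all 9 mRNAs at depth. The libraries carried 20299052 to 27214385 reads on genes, and the least covered member value rested on 1059 reads (Aldh1l1). Slc1a2 ranked 37 of 21937 genes by its mean normalized read count over the 12 libraries. Slc1a3 ranked 261, Gfap 427 and Aqp4 608, while Aldh1l1 was the lowest member at 3564. That count is not divided by gene length and so favours long mRNAs. Once divided by the length of the merged exons, Slc1a2 ranked 503 of 20939 genes. On that scale Gfap ranked 711, Slc1a3 990, Aqp4 1171 and Aldh1l1 4096. All 36 of 36 further resting astrocyte markers, a list with no member in it, also passed the minimum mean of 10 for testing. Of the 21937 genes listed, 14634 passed it. Mbp, the defining mRNA of myelin, took 4.76% to 20.78% of the reads of a library.

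Levels between genes were compared per 1000 bases of merged exon, over 12 libraries. Slc1a2 was the most abundant member at 2700 normalized reads per 1000 bases (lowest library 2249, highest 3122). Gfap followed at 1874 (1106 to 3466), then Mlc1 at 1367 (764.9 to 1805), Slc1a3 at 1319 (776.4 to 1968) and Aqp4 at 1122 (462.4 to 1355). Vim came next at 825.4 (614.1 to 1201), ahead of Hepacam at 539.7 (382.8 to 639.5), Fgfr3 at 305.9 (237.3 to 372.8) and Aldh1l1 at 289.9 (237.6 to 364.6). The order depended on the length used. Slc1a2 exceeded Gfap in 11 of 12 libraries, but in 6, those of P75 and 6 months, when the longest transcript was used (Slc1a2 3062, Gfap 2985.5). Hepacam exceeded Fgfr3 in 12 libraries, and in 8 with the longest transcript. Vim exceeded Hepacam in 11 libraries, and in 12 with the longest transcript. Gfap, Mlc1, Slc1a3 and Aqp4 held no fixed order, since each exceeded the next in 7 or 8 libraries only, while with the longest transcript Gfap exceeded Mlc1, and Slc1a3 exceeded both Mlc1 and Aqp4, in 12. Fgfr3 lay below Aldh1l1 in the 3 P18 libraries and above it in the other 9, and above it in 12 with the longest transcript.

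**Figure D1:**
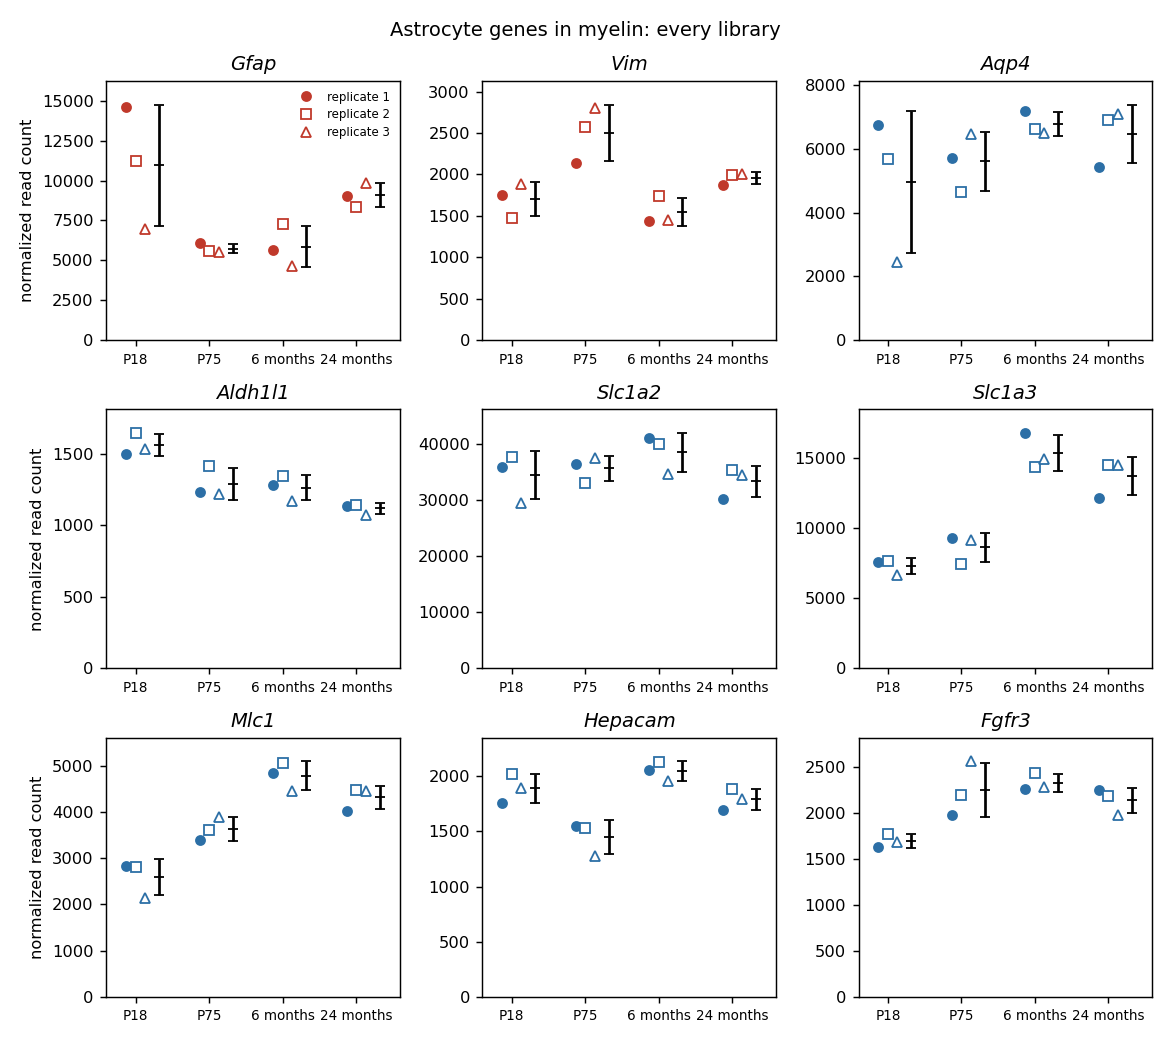
Normalized read count (vertical axis, from 0) of each of the 9 genes in every library, by age (horizontal axis). Symbols are replicates, the black bars give the mean ± SD of 3 libraries, red marks the reactive and blue the resting genes. Gfap is lowest at P75 and 6 months, Slc1a3 and Mlc1 are higher at 6 and 24 months than at P18, and Slc1a2 varies little.

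Gfap was high in the youngest and the oldest myelin and lower between. Its normalized read count was 14618, 11249 and 6991 in P18 replicates 1, 2 and 3, and 6069.8, 5569 and 5547 at P75. At 6 months it was 5654, 7255 and 4665, and at 24 months 9039.7, 8344 and 9865. All P18 libraries but the third lay above every library of the other ages, and the 24-month libraries lay above all P75 and 6-month libraries. The mean fell from 10953 ± 3822 (SD, n = 3) at P18 to 5729 ± 296 at P75, a log2 change of -0.87 (SE 0.20, adjusted p = 0.00238, limma). From P75 to 6 months the estimate was 0.01 (SE 0.20, adjusted p = 0.972), and the groups overlapped. Between 6 and 24 months Gfap rose 1.57-fold to 9083 ± 761, a log2 change of 0.65 (SE 0.20, adjusted p = 0.0321). Between P18 and 24 months the log2 difference of -0.21 (SE 0.20) did not pass the test (adjusted p = 0.375), and its sign depended on the P18 libraries: it was 0.03 (adjusted p = 0.894) without P18 replicate 1 and -0.50 (adjusted p = 0.00632) without P18 replicate 3.

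Vim followed another course and peaked at P75. It was at 1747, 1479 and 1888 normalized reads at P18, 2138.5, 2579 and 2803.5 at P75, 1434, 1736 and 1452 at 6 months, and 1874, 1994 and 2001 at 24 months. No P75 library overlapped a library of another age. Vim rose from P18 to P75 by 0.55 on the log2 scale (SE 0.11, adjusted p = 0.000985), where Gfap fell, and then fell by 0.70 (SE 0.11, adjusted p = 8.7e-05). It rose 1.27-fold from 6 to 24 months, from 1541 ± 170 to 1956.5 ± 71.2 (SD, n = 3), a log2 change of 0.35 (SE 0.11, adjusted p = 0.0398). Its P18 and 24-month libraries overlapped (log2 0.21, SE 0.11, adjusted p = 0.122), and without P18 replicate 3 the difference was 0.28 (adjusted p = 0.0384). The ratio of Gfap to Vim, per 1000 bases, was 3.63 ± 1.39 at P18, 1.29 ± 0.25 at P75, 2.09 ± 0.28 at 6 months, and reached 2.57 ± 0.22 at 24 months (SD, n = 3). The reactive pair thus moved in opposite directions in the first interval and in the same direction in the last.

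The glutamate transporters behaved differently from each other. Slc1a2 stayed within a narrow range, at 35928, 37796 and 29585 normalized reads at P18, 36374, 33137 and 37538 at P75, 41067, 39943 and 34617 at 6 months, and 30181, 35386 and 34533 at 24 months. Its libraries overlapped in all 4 comparisons, and its log2 estimates lay between -0.21 and 0.11 with none past the test. Slc1a3 was at 7587, 7659.6 and 6628 at P18, 9324, 7446 and 9179 at P75, 16798, 14362 and 14951 at 6 months, and 12164, 14490.5 and 14541 at 24 months. All libraries of 6 and 24 months lay above all libraries of P18 and P75. Slc1a3 rose 1.78-fold from P75 to 6 months (log2 0.83, SE 0.11, adjusted p = 2.08e-05), and the log2 difference between P18 and 24 months was 0.91 (SE 0.11, adjusted p = 3.66e-06). Its first and last steps, 0.24 (adjusted p = 0.103) and -0.16 (adjusted p = 0.326), did not pass. The first step passed under 7 of 24 settings, among them DESeq2 (0.25, adjusted p = 0.0643) and libraries scaled to the same total (0.37, adjusted p = 0.032). The ratio of Slc1a2 to Slc1a3 per 1000 bases was 3.06 ± 0.15 at P18, 2.69 ± 0.18 at P75, 1.63 ± 0.16 at 6 months, followed by 1.58 ± 0.03 at 24 months, so the libraries of P18 and P75 were all above those of the later ages.

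Among the junction and endfoot genes, Mlc1 rose in both of the first 2 steps and Hepacam fell and then rose. Mlc1 was at 2822, 2811 and 2142 normalized reads at P18, 3384, 3601 and 3892 at P75, 4839.7, 5055 and 4457 at 6 months, and 4026, 4463 and 4442 at 24 months. No library of P18, P75 and 6 months overlapped another of these ages, and the log2 steps were 0.49 (SE 0.11, adjusted p = 0.00148) and 0.40 (SE 0.11, adjusted p = 0.00455). Over the whole span Mlc1 rose by 0.74 on the log2 scale (SE 0.11, adjusted p = 1.32e-05). Hepacam, whose protein is a binding partner of MLC1, was at 1759.9, 2023 and 1892 at P18, 1549, 1535 and 1274 at P75, 2060.3, 2128 and 1955 at 6 months, and 1691, 1883 and 1796 at 24 months. Its P75 libraries lay below all others. It fell by 0.38 on the log2 scale (SE 0.09, adjusted p = 0.00302) and rose by 0.50 (SE 0.09, adjusted p = 0.000252). The Hepacam to Mlc1 ratio per 1000 bases was 0.62 ± 0.11 at P18 and 0.34 ± 0.06, 0.36 ± 0.01 and 0.35 ± 0.01 at the 3 later ages.

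Aqp4 varied widely among the P18 libraries. It was at 6759, 5690.2 and 2458 normalized reads at P18, 5724, 4644 and 6485 at P75, 7203, 6623 and 6510.1 at 6 months, and 5426, 6919.8 and 7096 at 24 months. P18 replicate 3 was the lowest of all 12. The log2 difference between P18 and 24 months, 0.50 (SE 0.25, adjusted p = 0.0979), passed the test although the libraries overlapped, and it was 0.05 (adjusted p = 0.748) without P18 replicate 3. This call was made under 8 of 24 settings, the reported one included, and was lost in edgeR (adjusted p = 0.174) and DESeq2 (adjusted p = 0.298) and without 24-month replicate 2 (0.45, adjusted p = 0.209) or 3 (0.43, adjusted p = 0.222). Leaving out any 1 library of P75 or 6 months also ended it. No step between consecutive ages passed. From P18 to P75 the log2 estimate was 0.29 (adjusted p = 0.387), and it was 0.57 (adjusted p = 0.0731) without P18 replicate 1 and -0.16 (adjusted p = 0.375) without P18 replicate 3. At 6 months all libraries lay above those of P75, with a log2 difference of 0.28 (SE 0.25, adjusted p = 0.362), and without P18 replicate 3 in the shared estimate of the spread the adjusted p was 0.0524.

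Aldh1l1 was lower in older myelin. It was at 1502, 1645 and 1531 normalized reads at P18, 1235, 1417 and 1219 at P75, 1279.6, 1343 and 1169.7 at 6 months, and 1137, 1145 and 1072 at 24 months. The P18 libraries were the highest and the 24-month libraries the lowest of the 12, with no overlap. Aldh1l1 fell by 0.48 on the log2 scale from P18 to 24 months (SE 0.09, adjusted p = 0.000125). It fell by 0.28 from P18 to P75 (SE 0.09, adjusted p = 0.0162), but the estimate was -0.15 (adjusted p = 0.272) when libraries were scaled to the same total. Fgfr3 was at 1633, 1775 and 1687 at P18, 1981, 2202 and 2565 at P75, 2263, 2437 and 2291 at 6 months, and 2249, 2186 and 1985 at 24 months. Its P18 libraries lay below all others, and it rose by 0.40 on the log2 scale from P18 to P75 (SE 0.09, adjusted p = 0.00286).

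**Figure D2:**
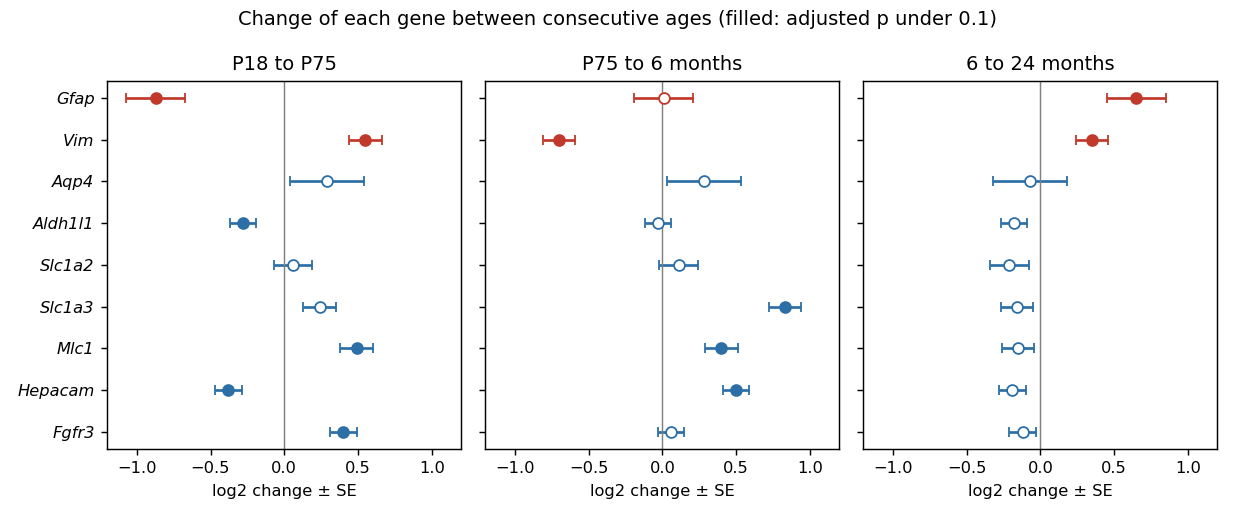
Log2 change ± SE (horizontal axis) of each gene between consecutive ages, with filled points for an adjusted p under 0.1 (limma, n = 3 libraries per age). In the last interval Gfap (0.65) and Vim (0.35) lie above 0 and all 7 resting genes lie between -0.21 and -0.07 with none past the test.

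Counted over the members, 6 of 9 were called from P18 to P75 (3 higher, 3 lower), where 48.8% of the 14634 genes tested were called (25.9% higher, 22.9% lower). From P75 to 6 months 4 of 9 were called (3 higher, 1 lower), against 60.6% of all genes (31.2% higher, 29.4% lower). In the last interval 2 of 9 were called, against 29.3% of all genes (16.6% higher, 12.7% lower), and between P18 and 24 months 5 of 9 (4 higher, 1 lower), against 69.0% (34.7% higher, 34.3% lower). These shares do not set the 9 genes apart from the rest of the table. No member was called with a change over 2-fold in any of the 4 comparisons, where 4.54%, 9.31%, 1.68% and 18.4% of all genes were. Libraries of the earlier and later age did not overlap for 6, 5, 5 and 4 members in these comparisons, where the shares of all genes were 47.7%, 63.1%, 43.5% and 66.6%. Adjacent comparisons share the libraries of the middle age.

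Reactive and resting genes gave estimates of opposite sign between 6 and 24 months. Gfap and Vim were the members called, both higher, where 16.6% of all genes were called higher. Of the 7 resting genes none was called, all 7 estimates were below 0, and for 3 of them (Aldh1l1, Hepacam and Fgfr3) every 24-month library lay below every 6-month library, as for 20.3% of all genes. Their median log2 change was -0.16, and that of all genes was 0.028. The difference between a reactive and a resting gene in their change was not tested. The 2 calls leaned on single libraries. Without 6-month replicate 3 neither passed (Gfap 0.50, adjusted p = 0.117, and Vim 0.31, adjusted p = 0.107). Vim did not pass without 6-month replicate 1 (0.30, adjusted p = 0.143), without 24-month replicate 2 (0.34, adjusted p = 0.114) or with libraries scaled to the same total (0.31, adjusted p = 0.131).

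Within a library, the mean log2 level of Gfap and Vim minus that of the 7 resting genes does not change when a library is multiplied by a factor. This difference was 0.27, -0.08 and 0.10 at P18, -0.24, -0.12 and -0.17 at P75, -0.94, -0.61 and -0.94 at 6 months, and -0.11, -0.28 and -0.12 at 24 months. The 6-month libraries were the lowest, and those of P75 and 24 months overlapped. Between 6 and 24 months the mean rose by 0.66, from -0.83 ± 0.19 to -0.17 ± 0.10 (SD, n = 3). From the youngest to the oldest age, Gfap alone minus the resting mean was 1.41 ± 0.38, 0.42 ± 0.10, 0.13 ± 0.27 and 0.93 ± 0.16. For Vim alone the values were -1.21 ± 0.35, -0.78 ± 0.18, -1.78 ± 0.15 and -1.28 ± 0.04. The levels used here were not divided by gene length. The sign of a difference therefore does not show which gene was more abundant, and only its change between ages can be read. The mean of the resting genes itself was highest at 6 months (12.37 ± 0.07) and lowest at P18 (11.94 ± 0.19). These differences describe the members and carry no test.

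**Figure D3:**
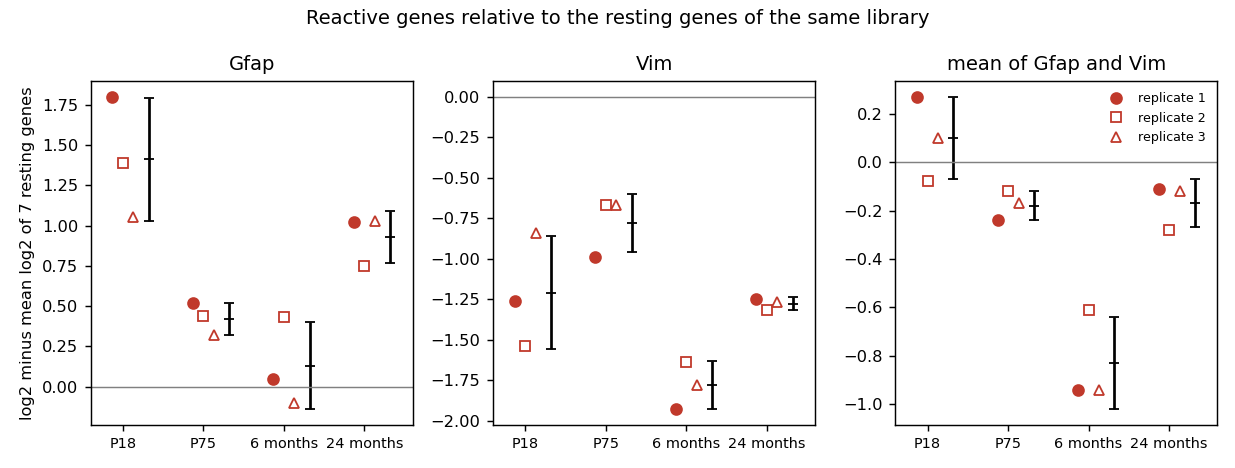
Log2 level of Gfap, of Vim and of their mean, each minus the mean log2 level of the 7 resting genes in the same library (vertical axis), by age. Symbols are replicates and black bars the mean ± SD of 3 libraries. For the mean of both, the 6-month libraries (-0.94 to -0.61) lie below all others. Levels are not divided by gene length, so only differences between ages can be read, not which gene was more abundant.

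P18 replicate 3 stood apart from the other P18 libraries for part of the genes. Gfap and Aqp4 deviated from their P18 means by -0.58 and -0.89 on the log2 scale there, while Aldh1l1, Hepacam and Fgfr3 deviated by -0.03, 0.00 and -0.01. The SD of log2 at P18 was 0.16 for the median gene tested. Mbp took 9.47% of the reads in that library and 15.07% and 20.78% in replicates 1 and 2. The part of myelin content in these deviations was not tested. At 6 months replicate 3 was the lowest for Gfap, and all 9 members lay below their mean of that age in it.

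**Figure D4:**
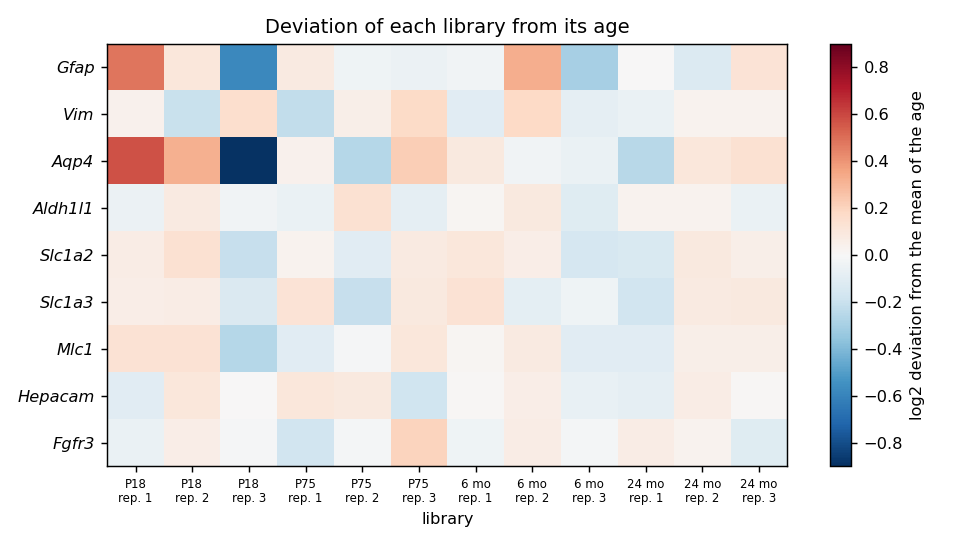
Log2 deviation of each gene (vertical axis) in each library (horizontal axis) from the mean of its age, in colour. The strongest deviations are those of Gfap and Aqp4 in the P18 libraries, from -0.89 to 0.57.

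The genes with the most similar course were found by the root mean square difference of log2 levels over the 12 libraries, each gene centred on its own mean, among 11296 genes. The nearest to Aqp4 were Gjb1 (0.14), which encodes the oligodendrocyte connexin 32, Prrg1 (0.15) and the myelin-associated septin scaffold gene Anln (0.18). Gjb1 was at 633.4, 590.9 and 322.4 normalized reads in P18 replicates 1 to 3 and Anln at 2258, 2103 and 1136, both low in the library in which Aqp4 was low. The nearest to Mlc1 were Slc7a10 (0.06), an amino acid exchanger of astrocytes, Fcgrt (0.09) and the potassium channel gene Kcnj16 (0.09). Slc1a3 was nearest to Zmpste24 (0.08), Gpc6 (0.10) and Kcna1 (0.10), and Hepacam to Trak1 (0.06), Gak (0.07) and Fam131b (0.08). Vim was nearest to Nsmce4a (0.12), Rfc3 (0.12) and Zfp82 (0.13). Gfap had no close neighbour: the nearest, Hps4, differed by 0.27, where the spread of Gfap around its own mean was 0.47.

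Other genes of the same pathways were counted in lists that include the members belonging to them. Of 14 genes for uptake and recycling of glutamate and GABA, 9 were higher and 0 lower at 6 months than at P75, where 31.2% of all genes were called higher and 29.4% lower. The GABA transporter gene Slc6a11 rose from 3248 ± 306 to 6066 ± 512 (SD, n = 3, log2 0.90, adjusted p = 2.04e-06), and fell by 0.43 (adjusted p = 0.00769) to 4509 ± 319 at 24 months. Between 6 and 24 months 1 of the 14 was higher and 2 were lower, where 16.6% of all genes were called higher and 12.7% lower. Of 17 endfoot, potassium and water handling genes tested, 11 were higher and 2 lower at 6 months than at P75. Kcnj10, the inward rectifier channel of the endfeet, rose from 3936 ± 596 to 6731 ± 889 (log2 0.78, adjusted p = 0.00231). Of 7 tested FGF receptors and co-receptors, 6 were higher and 0 lower at P75 than at P18, where 25.9% of all genes were called higher and 22.9% lower. Fgfr2 rose from 898.3 ± 166 to 1888 ± 167 (log2 1.08, adjusted p = 8.6e-06). Of 14 intermediate filament and linker genes, 4 were higher and 7 lower in that interval. Synm, the partner of vimentin and GFAP in filaments, rose from 545.0 ± 167 to 1349 ± 197 (log2 1.35, adjusted p = 5.26e-05). Ina, among the 7 lower, fell from 904.0 ± 53.7 to 430.8 ± 120 (log2 -1.11, adjusted p = 4.32e-05). Of 11 folate enzymes tested, 2 were higher and 2, Aldh1l1 and Shmt2, lower in that interval, at or below those shares. Shmt2, the mitochondrial serine hydroxymethyltransferase, fell from 546.3 ± 50.5 to 385.2 ± 38.9 (log2 -0.50, adjusted p = 0.00102).

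Genes linked to reactive astrocytes in earlier work were counted beside Gfap and Vim for the last interval and then for the other comparisons. Of 10 pan-reactive genes tested, 8 were higher and 0 lower at 24 than at 6 months, where 16.6% of all genes were called higher and 12.7% lower. Their median log2 change was 1.21. Among the 4 with a mean over 100, 3 were higher and 0 lower, and the median was 0.55. Serpina3n, a secreted protease inhibitor, was at 608.5, 504.2 and 476.8 normalized reads at 6 months and 1022, 1055 and 1363.5 at 24 months (log2 1.11, SE 0.14, adjusted p = 0.000285). Of 12 genes of the inflammation-linked set (A1), 12 were higher, with a median of 0.68, where the median of all genes was 0.028. Complement C3 was at 34.9, 42.6 and 28.2 at 6 months and 130.8, 169.8 and 156.4 at 24 months (log2 2.09, SE 0.26, adjusted p = 0.000237). Of 8 tested genes of the ischaemia-linked set (A2), 4 were higher and 0 lower. By contrast, 7 of the 36 further resting markers were higher and 3 lower, with a median of 0.03. Gjb6, which encodes an astrocyte connexin, rose from 2262 ± 17 to 3134 ± 105 (log2 0.47, adjusted p = 0.00179), and Sox9, a transcription factor of astrocytes, fell by 0.38 (adjusted p = 0.0339). From P18 to P75, in which Gfap fell and Vim rose, 3 pan-reactive, 8 A1 and 4 A2 genes were higher. In that interval 0, 1 and 0 were lower, and 25.9% of all genes were called higher and 22.9% lower. From P75 to 6 months 4, 5 and 3 were higher and 2, 1 and 1 lower, against 31.2% and 29.4% of all genes. Between P18 and 24 months 9, 11 and 7 were higher and 0, 1 and 1 lower, against 34.7% and 34.3%. Neither Gfap nor Vim was called in that comparison.

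Markers of other cell types were counted between 6 and 24 months, and then in the earlier intervals. Between 6 and 24 months 16.6% of all genes were called higher and 12.7% lower. Of 14 microglia markers, 9 were higher and 0 lower at 24 than at 6 months, and their summed level went from between 14069 and 16007 to between 22313 and 27872 normalized reads. Several genes of the reactive sets, such as C3, Cd14 and Srgn, are also expressed by microglia. Of 10 ependymal and choroid markers 1 was higher and 0 lower. It was Ttr, the transthyretin mRNA of the choroid plexus, at 28731 ± 2194 and 44404 ± 2463 (SD, n = 3, log2 0.63, adjusted p = 0.00339), which held most of the summed level of 27703 to 32055 at 6 months and 42917 to 47554 at 24 months. The sum of 14 endothelial and mural markers, of which 2 were higher and 1 lower, lay between 2640 and 2908.5 at 6 months and between 2484 and 2895.5 at 24 months. Of 12 oligodendrocyte markers 0 were higher and 3 lower, with Cnp, a myelin enzyme, at 13433 ± 2049 and 8101 ± 467 (log2 -0.72, adjusted p = 0.00493), and their sum went from between 1362007 and 2375764 to between 1456248 and 2063924. Of 14 neuron markers 2 were higher and 3 lower, with sums of 217335 to 229590.1 and 225985 to 233997. Of 10 oligodendrocyte precursor markers 1 was higher and 2 lower, and of 8 meningeal markers 1 was higher and 0 lower. From P18 to P75, 10 microglia, 4 ependymal, 6 endothelial, 0 oligodendrocyte, 4 neuron, 1 precursor and 4 meningeal markers were higher. In the same order 0, 1, 1, 9, 4, 5 and 3 were lower, against 25.9% of all genes higher and 22.9% lower. From P75 to 6 months 7, 4, 5, 3, 8, 5 and 4 were higher. In that interval 2, 3, 2, 0, 4, 4 and 0 were lower, against 31.2% higher and 29.4% lower. No marker of these lists was under 10 in every library, and the part of these cells in the changes of the 9 members was not tested.

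**Figure D5:**
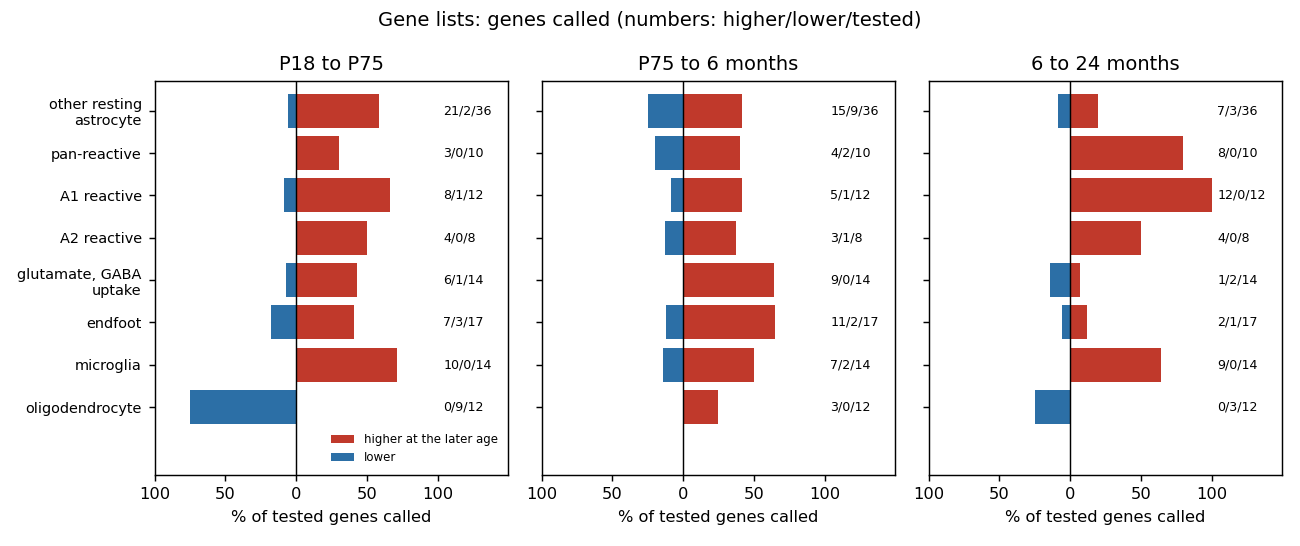
Percentage of the tested genes of 8 lists called higher (right, red) or lower (left, blue) between consecutive ages, with the counts higher/lower/tested printed. From 6 to 24 months 8 of 10 pan-reactive, 12 of 12 A1 and 9 of 14 microglia genes were called higher, against 7 of 36 further resting astrocyte markers.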

How the data were processed

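Myelin RNA was sequenced in 12 libraries, 3 at each of 4 ages, grouped by the age in the labels. Equal replicate numbers at 2 ages belong to different mice. The authors aligned reads to mm9 with TopHat (submitters' notes: TopHat2 2.0.8, SAMtools 0.1.19), counted them on genes with HTSeq 0.5.4p1 and divided by DESeq size factors. This normalized read count, not divided by length, is the deposited signal. Dividing by the value of 1 read gave whole reads (within 0.1 read) for at least 99.994% of values per library, and thus 20299052 to 27214385 reads on genes.

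Ages were compared with limma 3.58.1 (R 4.3.3; moderated, with a trend) in a joint model of all 12 libraries, after adding 1 to each normalized read count and taking log2. The 14634 genes averaging 10 or more were tested. Genes were called at an adjusted p under 0.1 (Benjamini-Hochberg over all genes tested). Fold changes are on this scale. An exact test of 3 against 3 cannot go below p = 0.1. Alternatives included edgeR 4.0.16 and DESeq2 1.42.0 on the recovered reads, other scalings, filters and pseudocounts (0.5 and 10), and each library left out. Methods were tested on simulated data. Levels per length and positions used GENCODE vM1 on NCBIM37, where 96.3% of symbols matched. Promoters came from RefSeq on GRCm38.p6. Figures used Python 3.11.15 and matplotlib 3.10.9.

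The 9 genes and the gene lists were chosen with earlier results of these data known. Named beside the members are, per list and consecutive step, up to 3 called genes with the largest rise and fall and over 100 normalized reads on average at either age, and the 3 nearest genes of each member among those with a mean over 100. Mbp and Stat3 were singled out with values known. Same-numbered libraries of 2 ages correlated between -0.21 and 0.19 in their deviations from the age means, so the numbers did not pair the samples.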

Additional observations from a re-analysis of the deposited data

How the results depend on the processing

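All comparisons other than that of 6 with 24 months called within 1.5 times as many of the 9 members under every alternative except the added requirement of a change over 2-fold. That requirement left 0 members in each of the 4 comparisons. In the last interval the count of 2 became 1 with libraries scaled to the same total and 4 with the same total without Mbp, where Aldh1l1 (-0.21, adjusted p = 0.0922) and Hepacam (-0.23, adjusted p = 0.0925) were also called, and it lay between 0 and 3 with single libraries left out. edgeR and DESeq2 also called Gfap and Vim, and no other member, in this interval. In the fit with a replicate block the counts were 6, 4, 2 and 4, against 6, 4, 2 and 5, and the call lost was Aqp4 between P18 and 24 months (adjusted p = 0.106). This was the least stable call, with adjusted p from 0.0101 to 0.748 over the alternatives. Of 207 alternative log2 values in each comparison, 195, 198, 197 and 182 kept their direction and side of the threshold, and 3, 7, 1 and 4 changed direction. With quantile normalization Slc1a2 was at -0.08 from P18 to P75 and Gfap at -0.01 from P75 to 6 months, and with the same total Slc1a2 was at 0.03 between P18 and 24 months. With single libraries left out, estimates that changed sign ranged as follows. From P18 to P75, Aqp4 ranged from -0.16 to 0.57 and Slc1a2 from -0.05 to 0.13. From P75 to 6 months, Gfap ranged from -0.16 to 0.16, Fgfr3 from -0.03 to 0.16 and Aldh1l1 from -0.07 to 0.04. Aqp4 ranged from -0.14 to 0.05 between 6 and 24 months. Between P18 and 24 months, Slc1a2 ranged from -0.15 to 0.03 and Gfap from -0.50 to 0.03. Scaled to the same total, the median log2 change of all genes from P18 to P75 was 0.139, against 0.015, and 72.2% of calls were then higher, against 53.0%. In the last interval it was 46.3%, against 56.8%. With the median in place of the mean of the resting genes, Gfap and Vim minus resting changed by -0.65 in place of -0.28 from P18 to P75, and by -0.75 in place of -0.27 from P18 to 24 months. With the length of the longest transcript, levels per 1000 bases were 2985.5 for Gfap, 313.3 for Aldh1l1, 3062 for Slc1a2, 2539 for Slc1a3 and 498.6 for Fgfr3, and Slc1a3 then exceeded Mlc1. Counts of called list genes were repeated under the same alternatives, a choice made after seeing the data. From 6 to 24 months, with single libraries left out, 6 to 9 pan-reactive and 8 to 12 A1 genes were higher, and 0 were lower. With a minimum mean of 100, 3 of 4 pan-reactive (median log2 change 0.55), 7 of 7 A1 (0.62) and 1 of 2 A2 genes left to test were higher, since fewer genes were tested. The cause of these shifts was not tested.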

Other observations

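Genes of immature astrocytes and radial glia, of Bergmann glia and of astrocyte transcription were counted in the same way. Of 12 immature genes, which include Vim and Slc1a3, 4 were higher and 5 lower at P75 than at P18, where 25.9% of all genes were called higher and 22.9% lower. Igfbp2, a binding protein of insulin-like growth factors, rose from 682.9 ± 99.6 to 1246 ± 81 normalized reads (SD, n = 3, log2 0.88, adjusted p = 1.28e-05, limma), and Sox11, a factor of immature neural cells, fell by 0.61 (adjusted p = 0.000888). Fabp7, the fatty acid binding protein of radial glia, fell by 1.40 on the log2 scale between P75 and 6 months, from 3820 ± 443 to 1448.5 ± 209 (adjusted p = 0.000164), in the interval in which Vim fell and Slc1a3 rose. Of 10 genes known from Bergmann glia, the cerebellar relatives of astrocytes, 7 were higher and 2 lower at 6 months than at P75, where 31.2% of all genes were called higher and 29.4% lower. Ednrb, an endothelin receptor gene, rose from 1202 ± 158 to 2509 ± 110 (log2 1.07, adjusted p = 5.46e-05).

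Of 19 astrocyte transcription factors and genes of the STAT3 axis, 3 were higher and 9 lower at P75 than at P18, 7 higher and 8 lower at 6 months than at P75, and 4 higher and 5 lower at 24 than at 6 months. Of all genes 48.8%, 60.6% and 29.3% were called in these intervals. Nfia, a factor that directs astrocyte formation, fell by 0.60 from P18 to P75 (2287 ± 97 to 1509.9 ± 25.8, adjusted p = 3.06e-05) and by 0.39 from 6 to 24 months (adjusted p = 0.0046). Il6st, which encodes the shared receptor subunit gp130, rose from 567.7 ± 15.0 at P75 to 1141 ± 152 at 6 months (adjusted p = 3.03e-05), and Lifr, its partner, rose by 0.39 from 6 to 24 months (adjusted p = 0.0158). Stat3 itself, named after its values were seen, was at 763.4 ± 34.3, 600.9 ± 39.4, 805.5 ± 44.2 and 718.8 ± 24.2 at the 4 ages, with a log2 change of -0.16 (adjusted p = 0.175) in the interval in which Gfap and Vim rose.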
